A study of Mus musculus with 207 samples.

Results

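Glucagon-containing young beta cells were set against glucagon-poor ones. The groups were chosen by 1 value, the TPM of Gcg, the gene of proglucagon: 43 of the 138 young cells had a Gcg TPM of 100 or above (31.2%, 95% Clopper-Pearson interval 23.6 to 39.6), and 27 had a Gcg TPM below 10 (19.6%, 13.3 to 27.2). The 68 young cells in between entered neither group. TPM is a share of a cell's transcripts, corrected for gene length and scaled so that each cell adds up to 1000000. Because Gcg chose the groups, its own levels are a description and support nothing, and all other genes were compared.

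The series holds 207 single islet cells of male mice, each labelled a beta cell, of which 138 came from mice aged 3 months and 69 from mice aged 26 months. Both Gcg groups are of the 3-month age, and the labels name no strain, genotype, treatment or animal for them. With no animal named, all young cells count as 1 sample: no test was possible, an SD is the spread between cells, an interval covers counting error only, and no difference between the groups has a replicate check. Cells were captured on a microfluidic chip, their RNA was copied and amplified, and expression was deposited as TPM, which keeps no read depth.

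Alpha cells and beta cells are the most abundant endocrine cells of the mouse islet. Alpha cells cut proglucagon with the convertase PC2 into glucagon, which raises blood glucose, and beta cells cut proinsulin into insulin, which lowers it. Delta cells make somatostatin (Sst), which restrains both, and PP cells make pancreatic polypeptide (Ppy). Peptide YY (Pyy) is made by several islet cell types. Transcription factors such as Irx1 and Irx2 mark alpha cells, while Mafa, Nkx6-1 and Pdx1 mark beta cells.

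The 120 bases upstream of the annotated start are given for Gcg and the other hormone genes whose levels are described next, since these are the sequences from which the transcripts that define and accompany the groups are started. They are from RefSeq, build GRCm38.p6, on the minus strand of each chromosome, and are printed 5′ to 3′ toward the gene. Capitals mark TATAAA, the letters of the TATA box, and TGACGTCA, the letters of the cAMP response element, each searched on both strands. The windows are chr2:62483654-62483773 for Gcg, chr16:23890845-23890964 for Sst, chr11:102101320-102101439 for Ppy and chr11:102107833-102107952 for Pyy.
Gcg: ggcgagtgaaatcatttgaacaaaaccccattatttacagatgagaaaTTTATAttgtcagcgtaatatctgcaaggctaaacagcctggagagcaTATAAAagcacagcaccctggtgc
Sst: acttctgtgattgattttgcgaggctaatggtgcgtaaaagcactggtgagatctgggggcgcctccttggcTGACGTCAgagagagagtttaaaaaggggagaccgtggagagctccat
Ppy: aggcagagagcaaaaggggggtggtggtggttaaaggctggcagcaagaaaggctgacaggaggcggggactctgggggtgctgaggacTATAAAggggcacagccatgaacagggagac
Pyy: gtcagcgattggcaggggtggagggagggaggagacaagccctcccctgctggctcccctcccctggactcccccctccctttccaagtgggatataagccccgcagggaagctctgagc

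The Gcg window holds TATAAA 24 bases before the start and once more, on the other strand, at 72 bases before it. The Ppy window holds it at 31 bases, the Sst window holds TGACGTCA at 48 bases, and neither string is in the Pyy window. TATAAA is found in 6.34% and TGACGTCA in 1.24% of all 32851 windows of this length. These matches are letters, not measured binding sites. Ppy lies at chr11:102099931-102101319 and Pyy at chr11:102106676-102107832, near each other and on the same strand, while Gcg lies at chr2:62474530-62483653. The Sst record spans chr16:23889573-23891342, so its window lies inside the record, upstream of one of its annotated starts. Ppy and Pyy are also related in sequence, as are Ins1 and Ins2, and the counting of reads that such genes share is not given here.

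In the Gcg-containing cells its level was 102 TPM at the lowest, 157 at the median and 547 at the highest, with a mean of 197 ± 98.9 (SD between cells). In the Gcg-poor cells it was 0 at the lowest, 1.99 at the median and 8.34 at the highest, with a mean of 2.72 ± 2.51. At the upper threshold the nearest cells had 101.87 TPM inside and 99.468 outside, and at the lower one 8.3428 TPM inside and 11.715 outside, so cells lay close to both sides of each threshold. Even a Gcg-containing cell was dominated by insulin: it held a median of 3344 TPM of Ins1 and Ins2 for each TPM of Gcg, and insulin made up a median of 53.8% of its TPM (15.7 to 69.0), against 52.7% (37.9 to 77.9) in Gcg-poor cells.

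**Figure D1:**
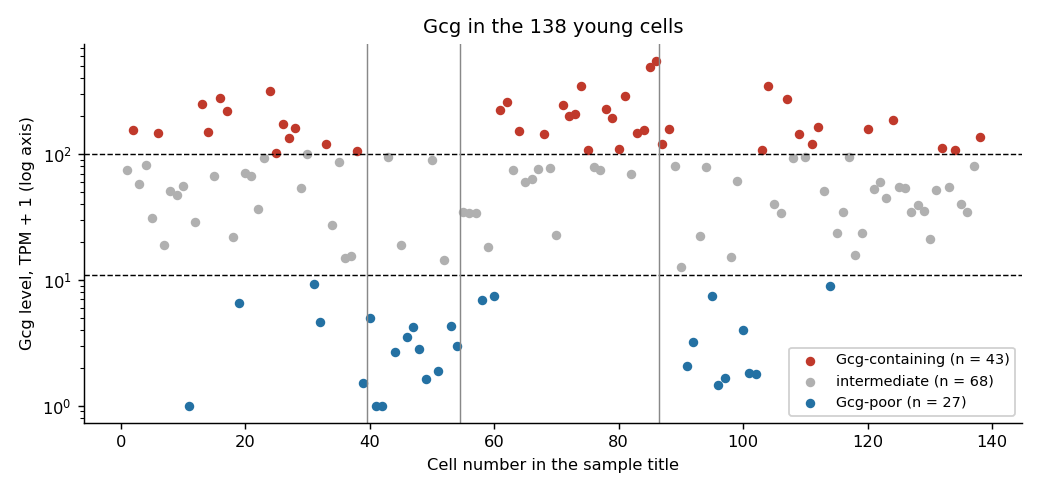
Gcg level of each of the 138 young cells, as TPM + 1 on a log axis, against the number in the cell's title, with Gcg-containing cells in red, intermediate cells in grey and Gcg-poor cells in blue. Dashed lines mark 100 and 10 TPM and vertical lines the boundaries of the runs; 11 of the 27 Gcg-poor young cells lie in cells 40 to 54, which hold no Gcg-containing cell.

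The groups are spread unevenly over the numbers in the cells' titles, which touches every comparison below. In cells 1 to 54 there were 13 Gcg-containing and 16 Gcg-poor cells, and in cells 55 to 138 there were 30 Gcg-containing and 11 Gcg-poor cells. Within these ranges, the runs of cells 1 to 39, 40 to 54, 55 to 86 and 87 to 138, which were found on these data after they had been seen and which the labels do not name as batches, held 13, 0, 17 and 13 Gcg-containing cells and 5, 11, 2 and 9 Gcg-poor cells. Genes detected at 1 TPM or above numbered 4304 per Gcg-containing cell (median, 3042 to 6654) and 4006 per Gcg-poor cell (1604 to 5880). The gap is wide in cells 1 to 54, with medians of 3800 in Gcg-containing and 2594 in Gcg-poor cells, and turns round in cells 55 to 138, with medians of 4480 in Gcg-containing and 5056 in Gcg-poor cells. The 11 Gcg-poor cells of 40 to 54 had a median of 2361. Mitochondrial coding genes took a median of 9.09% of TPM in Gcg-containing and 8.97% in Gcg-poor cells. Only the runs of cells 1 to 39 and 87 to 138 hold at least 5 cells of each group, and their values are given for many of the genes below. In addition, 5 young cells carried 1000 TPM or more of macrophage genes: 2 were Gcg-containing (cells 72 and 112), 1 was in between, and 2 were Gcg-poor (cells 49 and 32). The part of run, detection and these cells in any difference was not tested.

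Most alpha-cell genes other than Gcg were low or listed at 0 in both groups. A difference is given as the log2 ratio of the group means, Gcg-containing over Gcg-poor, after adding 1 TPM, and a gene is counted as higher or lower at 1.5-fold, a log2 ratio of 0.58, without any test. Only 4 of the 10 other alpha-cell genes on the list reached a mean of 1 TPM in young cells. Of these, 1 was higher by that rule (Ttr) and 0 were lower. Of all 11278 genes that reached this mean, 42.2% were higher and 16.5% lower, and the median log2 ratio was 0.38 both for the alpha-cell genes and for all genes. Within the ranges the median of the 4 genes lay above that of all genes, at 0.82 against 0.33 in cells 1 to 54 and 0.44 against 0.16 in cells 55 to 138, and within the runs it lay below it, at 0.22 against 0.25 in cells 1 to 39 and -0.01 against 0.07 in cells 87 to 138.

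Irx1 and Pou3f4 were listed at 0 in every cell of both groups. Irx2 reached 84.1 TPM in cell 71, a Gcg-containing cell with 244 TPM of Gcg, and this cell held 99.6% of all Irx2 TPM of the young cells. The same cell held 68.1 TPM of Slc38a5, an amino acid transporter of alpha cells, or 93.4% of its young total. Cell 71 stands alone in this, as no other Gcg-containing cell had 1 TPM or more of Irx2. Loxl4 was in turn held mostly by cell 75, with 9.68 TPM. That cell also held 98.8% of the young total of Sparc and 99.6% of that of Col1a2, genes of stellate cells and fibroblasts.

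Gc, a vitamin D-binding protein enriched in alpha cells, was found in 23 of 43 Gcg-containing and 14 of 27 Gcg-poor cells, with a median of 2.13 TPM in Gcg-containing and 2.15 TPM in Gcg-poor cells. Its log2 ratio was 1.74 in cells 1 to 54 and -0.78 in cells 55 to 138, so it pointed opposite ways, as it did in cells 1 to 39 at 2.51 and in cells 87 to 138 at -0.30. Slc7a2, a transporter of arginine and other cationic amino acids, averaged 18.3 ± 25.1 TPM in Gcg-containing and 14.4 ± 16.3 TPM in Gcg-poor cells, a log2 ratio of 0.32, with -0.15 in cells 1 to 39 and -0.18 in cells 87 to 138.

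Ttr, transthyretin, was the alpha-cell gene with a difference of 1.5-fold. Transthyretin carries thyroxine and retinol-binding protein and is made by alpha cells and also by beta cells. Its level in Gcg-containing cells was 34.2 TPM at the lowest, 895 at the median and 4172 at the highest, with a mean of 1095 ± 873. In Gcg-poor cells it was 0.653 at the lowest, 505 at the median and 1603 at the highest, with a mean of 568 ± 476. The groups overlapped over most of their ranges, and the log2 ratio was 0.95. It was 1.15 in cells 1 to 54, with medians of 887 TPM in Gcg-containing and 263 TPM in Gcg-poor cells, and 0.60 in cells 55 to 138, with medians of 934 TPM in Gcg-containing and 730 TPM in Gcg-poor cells. Within single runs it was smaller, 0.59 in cells 1 to 39 and 0.15 in cells 87 to 138. The rank correlation of Ttr with Gcg across all cells of a run was -0.01 in cells 1 to 39 (n = 39), -0.06 in cells 55 to 86 (n = 32) and 0.15 in cells 87 to 138 (n = 52), given as a description only. The level of Ttr thus did not follow that of Gcg from cell to cell within a run.

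Other islet hormones were found in most cells of both groups, and their order reversed between the title ranges. Of 19 other hormones and neuropeptides, 9 reached a mean of 1 TPM, of which 2 were higher in Gcg-containing cells (Pyy, and Npy, which was listed at 0 in the Gcg-poor cells) and 0 lower, a share below that of all genes. Their median log2 ratio was 0.09. Ghrl, Gal, Cck, Vip, Adcyap1, Tac1 and Gip were listed at 0 in every cell of both groups.

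Sst averaged 85.6 ± 157 TPM in Gcg-containing cells (0 at the lowest, 10.4 at the median, 770 at the highest) and 92.5 ± 125 TPM in Gcg-poor cells (1.8, 42.6 and 491), with a log2 ratio of -0.11. In cells 1 to 54 the Gcg-containing cells were lower, at 39.2 ± 41.5 TPM, against 148 ± 138 TPM in the Gcg-poor cells, a log2 ratio of -1.89. In cells 55 to 138 they were higher, at 106 ± 184 TPM, against 12.3 ± 13.9 TPM in the Gcg-poor cells, a log2 ratio of 3.00. The medians there lay close together, at 9.2 TPM in Gcg-containing and 7.46 TPM in Gcg-poor cells, so the difference of the means comes from the upper tail. At 100 TPM or above, Sst was found in 9 of 30 Gcg-containing cells of that range (30.0%, interval 14.7 to 49.4) and in 0 of 11 Gcg-poor cells, a count that leaves room for 27.3%. The interval and the limit overlap. In cells 1 to 54 the counts were 1 of 13 Gcg-containing and 8 of 16 Gcg-poor cells, and 6 of those 8 belong to cells 40 to 54. Without that run the ratio was smaller, -0.66 in cells 1 to 39, and it was 3.13 in cells 87 to 138.

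Ppy averaged 66.7 ± 118 TPM in Gcg-containing cells (1.34, 13.6 and 471 at the lowest, median and highest) and 49.4 ± 83 TPM in Gcg-poor cells (0.901, 12.5 and 265), a log2 ratio of 0.43. It followed the same pattern as Sst, with a log2 ratio of -2.13 in cells 1 to 54 and 1.67 in cells 55 to 138. There, 8 of 30 Gcg-containing cells (26.7%, interval 12.3 to 45.9) and 1 of 11 Gcg-poor cells had 100 TPM or more. Between cells 1 to 39 and cells 87 to 138 the ratio differed less, at -0.18 and 0.69.

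Pyy averaged 25.7 ± 64.6 TPM in Gcg-containing cells (0, 9.56 and 419) and 15.6 ± 23.2 TPM in Gcg-poor cells (0, 3.75 and 96.7), a log2 ratio of 0.68. The 419 TPM belong to cell 71, the cell with Irx2, and with the highest cell of each group left out the log2 ratio was 0.36, under 1.5-fold. It was lower in the Gcg-containing cells of 1 to 54, at 7.34 ± 5.02 TPM, against 24.5 ± 27 TPM in Gcg-poor cells, and higher in those of 55 to 138, at 33.7 ± 76.3 TPM, against 2.69 ± 1.76 TPM in Gcg-poor cells. In that second range no Gcg-poor cell exceeded 6.36 TPM, under the Gcg-containing median of 12.8 TPM. Pyy was higher in the Gcg-containing cells in both runs that hold enough of each group, with log2 ratios of 0.72 in cells 1 to 39 and 2.23 in cells 87 to 138; the low value for cells 1 to 54 appears when the Gcg-poor cells of 40 to 54, with a Pyy median of 24.4 TPM, are included.

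Ppy and Pyy also varied with Gcg over all cells of some runs, intermediate cells included. In cells 55 to 86 (n = 32) the rank correlation with Gcg was 0.51 for Ppy and 0.49 for Pyy, ranks 13 and 19 among 6082 genes. It was 0.17 and 0.26 in cells 87 to 138 (n = 52), ranks 892 and 241. In cells 1 to 39 (n = 39) it was 0.05 and 0.21, ranks 2091 and 583. The labels do not say how the cells of a run were processed, and these values describe single runs only. Ppy and Pyy themselves had a rank correlation of 0.77 in cells 55 to 86 and 0.09 in cells 1 to 39. Both were at 1 TPM or above in 41 of 43 Gcg-containing cells and 23 of 27 Gcg-poor cells, so low levels of several hormones were found in nearly every cell of either group. At least 1 of Sst, Ppy and Pyy reached 100 TPM in 15 of 43 Gcg-containing and 9 of 27 Gcg-poor cells.

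**Figure D2:**
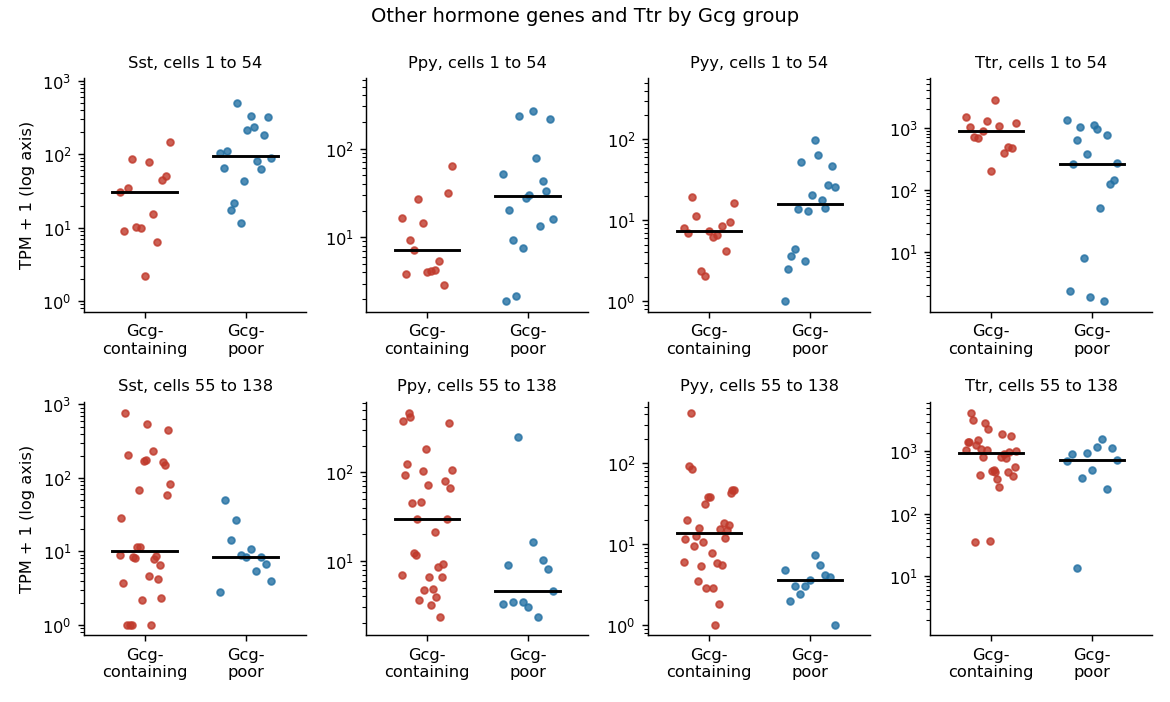
Level in each cell, as TPM + 1 on a log axis, of Sst, Ppy, Pyy and Ttr in Gcg-containing (red) and Gcg-poor (blue) young cells, for cells 1 to 54 (top) and cells 55 to 138 (bottom); each point is a cell and each bar a median. Sst, Ppy and Pyy are lower in the Gcg-containing cells of the first range and their upper points are higher in the second, while the Ttr median is higher in the Gcg-containing cells of both, at 887 TPM against 263 TPM in Gcg-poor cells of the first range and 934 TPM against 730 TPM in Gcg-poor cells of the second.

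Beta-cell hormones differed little. Ins1 averaged 47450 ± 17503 TPM in Gcg-containing and 48890 ± 14305 TPM in Gcg-poor cells, a log2 ratio of -0.04, and Ins2 had a log2 ratio of -0.09. Iapp, amylin, which beta cells secrete with insulin, averaged 67689 ± 32044 TPM in Gcg-containing and 63480 ± 35785 TPM in Gcg-poor cells, with a log2 ratio of 0.09. For Ins1 and Iapp the ratio pointed opposite ways in the ranges, at -0.59 and 0.23 for Ins1 and 0.70 and -0.43 for Iapp. Ucn3, urocortin 3, a peptide of mature mouse beta cells that stimulates delta cells, averaged 602 ± 539 TPM in Gcg-containing and 443 ± 461 TPM in Gcg-poor cells. Its log2 ratio was 0.44 over all young cells, -0.12 in cells 1 to 39 and -0.06 in cells 87 to 138. Pdyn, the dynorphin precursor, was found in 13 of 43 Gcg-containing and 7 of 27 Gcg-poor cells. Npy was detected in 2 of 43 Gcg-containing cells, with 242 TPM in cell 107, and was listed at 0 in all 27 Gcg-poor cells.

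Prohormone processing genes did not separate the groups. Among 7 measured, 1 was higher (Cpe) and 1 lower (Pcsk1n), beside 42.2% and 16.5% of all genes. The median log2 ratio was 0.18, below the 0.38 of all genes. Pcsk2 encodes PC2, the convertase that alpha cells use to make glucagon. It averaged 435 ± 271 TPM in Gcg-containing and 385 ± 282 TPM in Gcg-poor cells, with log2 ratios of 0.88 in cells 1 to 54 and -0.38 in cells 55 to 138. Pcsk1 encodes PC1/3, which processes proinsulin and can cut proglucagon to GLP-1. It averaged 93.9 ± 136 TPM in Gcg-containing and 103 ± 141 TPM in Gcg-poor cells, with 0.83 and -0.91 in the ranges. The PC2 chaperone gene Scg5 had log2 ratios of 1.51 and -0.16 in the ranges, and Cpe, whose carboxypeptidase trims the cut peptides, 1.93 and -0.26. Pcsk1n, which encodes the PC1/3 inhibitor proSAAS, had -2.16 and 0.89. Pam, which encodes the enzyme that amidates peptides, had 0.71 and -0.10. These 6 genes had ratios of opposite sign in the ranges, while Furin, which encodes a convertase of the secretory pathway, had 0.18 and 0.19. The ratios in cells 1 to 39 and 87 to 138 were -0.21 and -0.27 for Pcsk2, -0.29 and -1.12 for Pcsk1, and 0.93 and -0.31 for Cpe.

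Granins and granule membrane genes had a higher median log2 ratio, 0.60 over 12 measured genes. Of these, 6 were higher (42.2% of all genes) and 0 lower (16.5%). However, 0 of them were higher in both ranges, where 14.8% of all genes were higher and 5.05% lower in both. The median of the list was 1.18 in cells 1 to 54 and 0.03 in cells 55 to 138. Scg2, secretogranin II, had 165, 1655 and 6324 TPM at the lowest, median and highest in Gcg-containing cells and 53.5, 893 and 3278 TPM in Gcg-poor cells, a log2 ratio of 1.04. In the ranges it was 2.00 and 0.28, and in cells 1 to 39 and 87 to 138 it was 0.86 and 0.10. Scgn, the calcium sensor secretagogin, averaged 267 ± 306 TPM in Gcg-containing and 71 ± 119 TPM in Gcg-poor cells, with log2 ratios of 4.17 and 0.42 in the ranges, 2.76 in cells 1 to 39 and 0.38 in cells 87 to 138. Both ratios were larger in cells 1 to 54 than in cells 55 to 138, and both were past 1.5-fold in cells 1 to 39, which hold only 5 Gcg-poor cells. The part of gene detection in these ratios was not tested. Ptprn, the granule membrane protein IA-2, was lower in Gcg-containing cells by less than 1.5-fold, with log2 ratios of -0.45 and -0.57 in the ranges.

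Receptors for glucagon, the incretins and related ligands were sparse in both groups, with 6 of 8 measured and a median log2 ratio of -0.09. Of these 6, 2 were higher (Gipr and Ffar1) and 1 lower (Gcgr), beside 42.2% and 16.5% of all genes. Gcgr, the glucagon receptor, was found in 14 of 43 Gcg-containing and 7 of 27 Gcg-poor cells. Its log2 ratio of -1.65 rests on cell 40, a Gcg-poor cell with 806 TPM; with the highest cell of each group left out it was 0.95. Glp1r, the receptor of GLP-1, was found in 12 of 43 Gcg-containing and 9 of 27 Gcg-poor cells, with means of 8.45 ± 28.4 TPM in Gcg-containing and 8.23 ± 18.4 TPM in Gcg-poor cells. Its log2 ratio was 0.03 over all young cells but -2.99 in cells 1 to 54, where 0 of 13 Gcg-containing and 5 of 16 Gcg-poor cells had it, 0.34 in cells 55 to 138, -4.54 in cells 1 to 39 and -1.62 in cells 87 to 138. Gipr, the receptor of GIP, was found in 21 of 43 Gcg-containing and 10 of 27 Gcg-poor cells, with a log2 ratio of 1.19 that was -1.46 in cells 1 to 54 and 1.92 in cells 55 to 138, 0.61 in cells 1 to 39 and 1.08 in cells 87 to 138. Ffar1, a fatty acid receptor, was listed at 0 in all 27 Gcg-poor cells and found in 6 of 43 Gcg-containing cells, with 981 TPM in cell 28, or 79.2% of its young total. Sstr3, a somatostatin receptor, had a log2 ratio of -0.23.

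**Figure D3:**
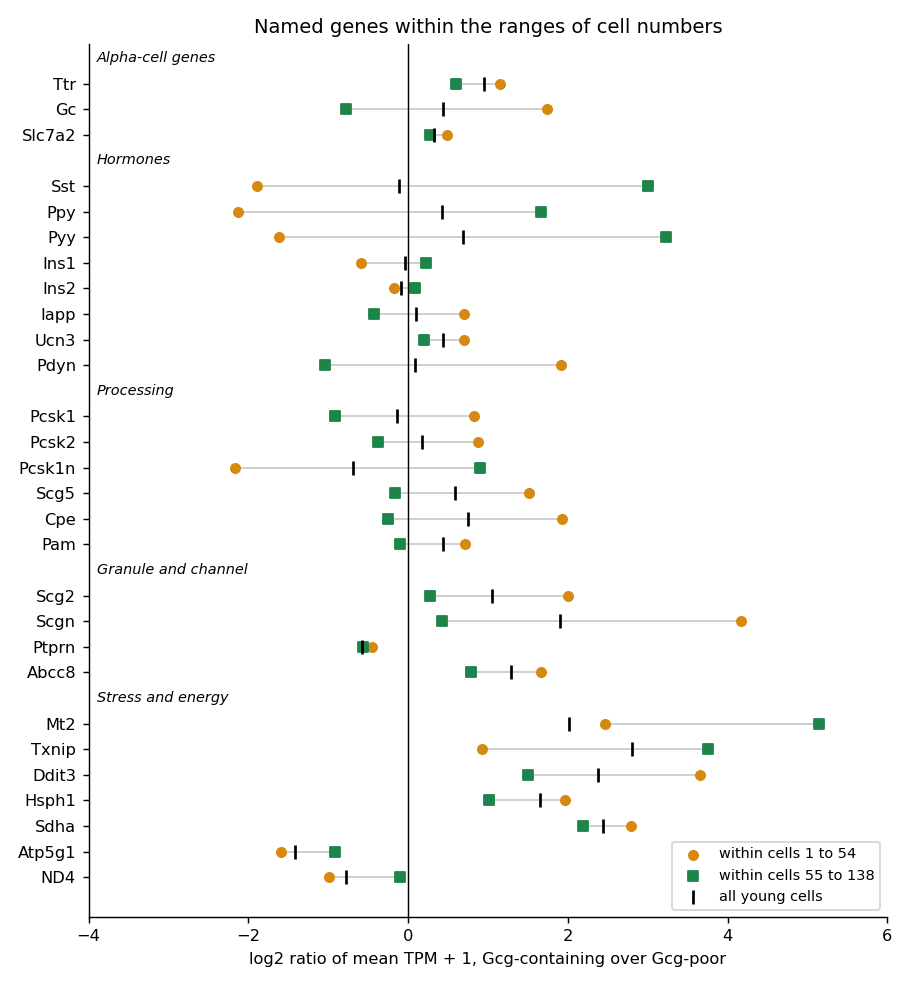
Log2 ratio of mean TPM + 1, Gcg-containing over Gcg-poor, for named genes in cells 1 to 54, in cells 55 to 138 and in all young cells. Sst, Ppy and Pyy lie left of 0 in the first range and right of it in the second, Cpe and Scg5 the other way round, and Ttr, Ddit3, Mt2 and Sdha lie right of 0 in both.

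Over the whole transcriptome, 4755 of 11278 genes were at least 1.5-fold higher in Gcg-containing cells and 1859 at least 1.5-fold lower, which describes the size of the ratios and is not a count of tested changes. In cells 1 to 54 alone 5033 genes were higher and 2621 lower, and in cells 55 to 138 alone 3993 and 2578. Within both title ranges, 1668 genes (14.8%) were higher and 569 (5.05%) lower. Within both cells 1 to 39 and cells 87 to 138, 1587 (14.1%) were higher and 670 (5.94%) lower. The sign of a gene's ratio was the same in both ranges for 47.6% of genes. Among the 520 genes with a mean of 100 TPM or above, the ratios in the ranges had a Pearson correlation of -0.54 across genes, which are not independent. The 8 genes farthest from the rest, named in the caption after their values were seen, are genes that macrophages express. Without the 5 cells that carried macrophage genes, this correlation was -0.03, and 47.7% of these genes had the same sign. A gene's ratio in one range therefore told little of its ratio in the other.

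Many of the ratios rest on few cells. Of the tested genes, 291 were listed at 0 in all Gcg-poor cells, and 73 in all Gcg-containing cells. A single cell held over 50% of the group's TPM for 27.5% of genes in the Gcg-containing group and for 45.1% in the smaller Gcg-poor group. With the highest cell of each group left out, 4996 genes were higher and 999 lower.

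**Figure D4:**
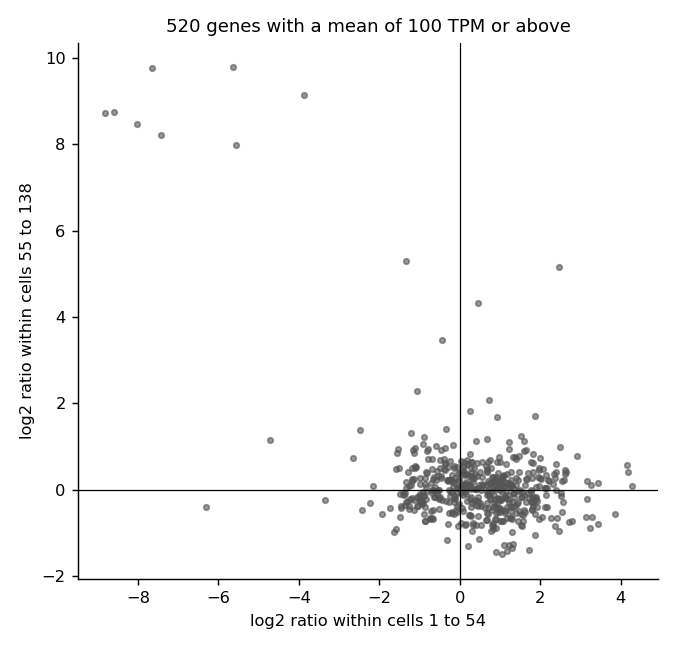
Log2 ratio of mean TPM + 1, Gcg-containing over Gcg-poor, in cells 55 to 138 (vertical) against cells 1 to 54 (horizontal) for the 520 genes with a mean of 100 TPM or above in young cells; each point is a gene. The 8 points at the upper left are Apoe, Ctss, H2-Aa, H2-Ab1, Cd74, Lyz2, Tyrobp and Wfdc17, and without the 5 cells that carried macrophage genes the correlation was -0.03, against -0.54 with them.

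Genes whose ratio pointed the same way in both ranges are described next, and were ranked by the smaller of the ratios in the ranges. Genes also needed a mean of 10 TPM or above, detection in at least 25% of young cells and the same sign in the difference of mean log2 values. Of such genes 1467 qualified, 1204 of them higher in Gcg-containing cells and 263 lower. Since these values chose the genes, their ratios are given with no test. Over all genes the sign was the same in both ranges for 47.6%, so a shared sign does not by itself set a gene apart. The examples that follow are from the 12 ranked highest and the 12 ranked lowest.

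Aup1, a lipid droplet protein that takes part in ER-associated degradation, was detected in 17 of 43 Gcg-containing cells and in 4 of 27 Gcg-poor cells, with log2 ratios of 5.26 and 3.36 in the ranges. Its highest value was 707 TPM in the Gcg-containing and 7.79 TPM in the Gcg-poor cells. Polr3d, a subunit of RNA polymerase III, was detected in 20 of 43 Gcg-containing and 4 of 27 Gcg-poor cells, with 4.30 and 3.21. Umps, the enzyme of the last steps of UMP synthesis, was detected in 16 of 43 Gcg-containing and 2 of 27 Gcg-poor cells, with 3.32 and 3.98. These genes have different functions and share only their pattern. Nfe2l2, the transcription factor NRF2 of the antioxidant response, was detected in 18 of 43 Gcg-containing and 6 of 27 Gcg-poor cells, with 3.11 and 5.71, and 1 Gcg-containing cell held 2203 TPM of it.

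Lower in Gcg-containing cells was Mat2b, the regulatory subunit of methionine adenosyltransferase, at 11.8 ± 24.7 TPM against 61.3 ± 118 TPM in Gcg-poor cells, with log2 ratios of -1.89 and -2.73 in the ranges. Glrx5, a mitochondrial glutaredoxin needed for iron-sulfur clusters, averaged 10.1 ± 25.5 TPM in Gcg-containing and 27.3 ± 55.3 TPM in Gcg-poor cells, with -1.98 and -1.84. Taz, the mitochondrial cardiolipin transacylase tafazzin, was detected in 8 of 43 Gcg-containing cells, all of them in cells 55 to 138, and in 13 of 27 Gcg-poor cells. Coq10b, a coenzyme Q-binding protein of mitochondria, had -1.66 and -1.83 but 1.56 in cells 1 to 39. All 12 of the highest-ranked genes were at least 1.5-fold higher also within cells 1 to 39 and within cells 87 to 138, which are part of the ranges that ranked them, while of the 12 lowest-ranked genes 9 were lower in cells 1 to 39, 12 in cells 87 to 138 and 6 in cells 55 to 86, where there are 2 Gcg-poor cells. These counts come from cells that also ranked the genes and are no separate check.

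Among stress-response genes, the heat-shock list had the highest share past 1.5-fold. Heat-shock genes had 8 of 9 measured higher (42.2% of all genes) and 0 lower (16.5%). Their median log2 ratio was 1.33 over all young cells, 1.20 in cells 1 to 54 and 0.90 in cells 55 to 138. The medians of all genes there were 0.38, 0.33 and 0.16. In cells 1 to 39 the heat-shock median was 0.78, against 0.25 for all genes. In cells 87 to 138 it was -0.06, against 0.07 for all genes, with 0 of 9 higher. In cells 55 to 86, which hold 2 Gcg-poor cells, it was 0.56, below the median of all genes in that run. The heat-shock median thus did not reach 0.90 within either run of cells 55 to 138. In both ranges 4 of 9 were higher (14.8% of all genes). Hsph1, a chaperone of the HSP110 family, averaged 71.1 ± 119 TPM in Gcg-containing and 22 ± 47.4 TPM in Gcg-poor cells. Hspd1, the mitochondrial chaperonin HSP60, averaged 84.2 ± 92.5 TPM in Gcg-containing and 53.9 ± 97.9 TPM in Gcg-poor cells. Hspa1b, an inducible HSP70 that is nearly identical to its neighbour Hspa1a and so uncertain in count, was found in 16 of 43 Gcg-containing cells and 2 of 27 Gcg-poor cells; all 16 were in cells 55 to 138.

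Genes of the endoplasmic reticulum stress response had a median log2 ratio of 0.48 over 20 measured genes. Of these, 5 were higher, a smaller share than the 42.2% of all genes, and 0 lower (16.5%). The medians were 1.29 and -0.25 in the ranges, against 0.33 and 0.16 for all genes. Ddit3 was among the 4 higher in both (14.8% of all genes). It encodes CHOP, a transcription factor induced in prolonged stress of the endoplasmic reticulum. It was detected in 33 of 43 Gcg-containing and 13 of 27 Gcg-poor cells, with 0, 35.2 and 703 TPM at the lowest, median and highest in Gcg-containing cells and 0, 0.563 and 75.8 TPM in Gcg-poor cells. Its log2 ratio was 2.38, with 3.66 and 1.5 in the ranges, 5.39 in cells 1 to 39 and 0.81 in cells 87 to 138. The groups overlapped, since both hold cells at 0.

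The median log2 ratio of antioxidant and metal response genes lay above that of all genes in both ranges, at 0.73 and 0.41 against 0.33 and 0.16, and in both runs, at 0.50 against 0.25 in cells 1 to 39 and 0.58 against 0.07 in cells 87 to 138. Of 19 measured, 10 were higher (42.2% of all genes) and 2 lower (16.5%), and 6 were higher in both ranges (14.8% of all genes) and 0 lower in both (5.05%). Mt2, a metallothionein that binds zinc and copper, reached 50 TPM in 20 of 43 Gcg-containing and 5 of 27 Gcg-poor cells. In cells 55 to 138 it did so in 14 of 30 Gcg-containing and 0 of 11 Gcg-poor cells, and in cells 1 to 54 in 6 of 13 Gcg-containing and 5 of 16 Gcg-poor cells. Its highest value, 5101 TPM, was in a Gcg-containing cell, and in cells 1 to 54 its median was lower in Gcg-containing cells, at 12.6 TPM, against 16 TPM in Gcg-poor cells, although its log2 ratio there was 2.46. The log2 ratio was 3.24 in cells 1 to 39 and 5.44 in cells 87 to 138. Txnip, a thioredoxin inhibitor that glucose induces, reached 50 TPM in 15 of 43 Gcg-containing and 1 of 27 Gcg-poor cells. Of those 15, 14 were in cells 55 to 138. At 50 TPM, then, the groups differed for Mt2 and Txnip mainly in the second range.

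Genes of energy metabolism had ratios in both directions. Sdha and Atp5g1, described next, had the highest and lowest log2 ratios of 23 measured nuclear genes of oxidative phosphorylation, at 2.44 and -1.42. Sdha, the flavoprotein of respiratory complex II, was detected in 37 of 43 Gcg-containing and 15 of 27 Gcg-poor cells, with a mean of 75.6 ± 108 TPM in Gcg-containing and 13.1 ± 33 TPM in Gcg-poor cells. Its log2 ratios were 2.79 and 2.19 in the ranges, 4.52 in cells 1 to 39 and 2.72 in cells 87 to 138. Atp5g1, a ring subunit of ATP synthase, was lower, at 276 ± 277 TPM in Gcg-containing and 740 ± 1020 TPM in Gcg-poor cells, with -1.59 and -0.91. The median log2 ratio of the 23 nuclear genes of oxidative phosphorylation was 0.07, with 3 higher (42.2% of all genes) and 4 lower (16.5%). That of 13 mitochondrial coding genes was -0.32, with 0 higher (42.2% of all genes) and 2 lower (16.5%). The mitochondrial coding genes shared a direction within the ranges. In cells 1 to 54, 0 of 13 had a ratio above 0, with a median of -0.75 and 10 lower by 1.5-fold. In cells 55 to 138, 0 of 13 had a ratio above 0, with a median of -0.28 and 2 lower. Of all 11278 genes, 2621 were lower in cells 1 to 54 and 2578 in cells 55 to 138. Of the 13 mitochondrial coding genes, 5 had a ratio above 0 in cells 1 to 39, with a median of -0.18, and 0 in cells 87 to 138, with a median of -0.38. ND4 averaged 4614 ± 2810 TPM in Gcg-containing and 7922 ± 6634 TPM in Gcg-poor cells, with a log2 ratio of -0.99 in cells 1 to 54 and -0.10 in cells 55 to 138. The 23 ribosomal protein genes had a median of -0.01, with 0 higher (42.2% of all genes) and 2 lower (16.5%).

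Beta-cell transcription factors had ratios in both directions. Of 15 measured, 6 were higher (42.2% of all genes) and 3 lower (16.5%), with a median log2 ratio of 0.44, near that of all genes. Levels of Mafa, Nkx6-1 and Pdx1 are not reported here. St18, a zinc finger repressor of the beta cell, was detected in 34 of 43 Gcg-containing and 13 of 27 Gcg-poor cells, with log2 ratios of 3.53 and 0.61 in the ranges, 2.22 in cells 1 to 39 and 1.19 in cells 87 to 138. Isl1, needed by all islet endocrine cells, averaged 62.6 ± 77 TPM in Gcg-containing and 116 ± 282 TPM in Gcg-poor cells, where 1 cell held 1360 TPM; its median was higher in the Gcg-containing cells, at 38.1 TPM, against 13.4 TPM in the Gcg-poor cells. Among 12 genes of glucose sensing and secretion coupling, 3 were higher (42.2% of all genes) and 0 lower (16.5%). In both ranges, 3 were higher (14.8% of all genes). The list's median log2 ratio was 0.40, with 1.53 in cells 1 to 54 and -0.21 in cells 55 to 138. Abcc8, the sulfonylurea receptor of the potassium channel that couples ATP to secretion, averaged 76.6 ± 106 TPM in Gcg-containing and 30.8 ± 36.4 TPM in Gcg-poor cells, with a log2 ratio of 0.66 in cells 1 to 39 and -0.04 in cells 87 to 138.

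**Figure D5:**
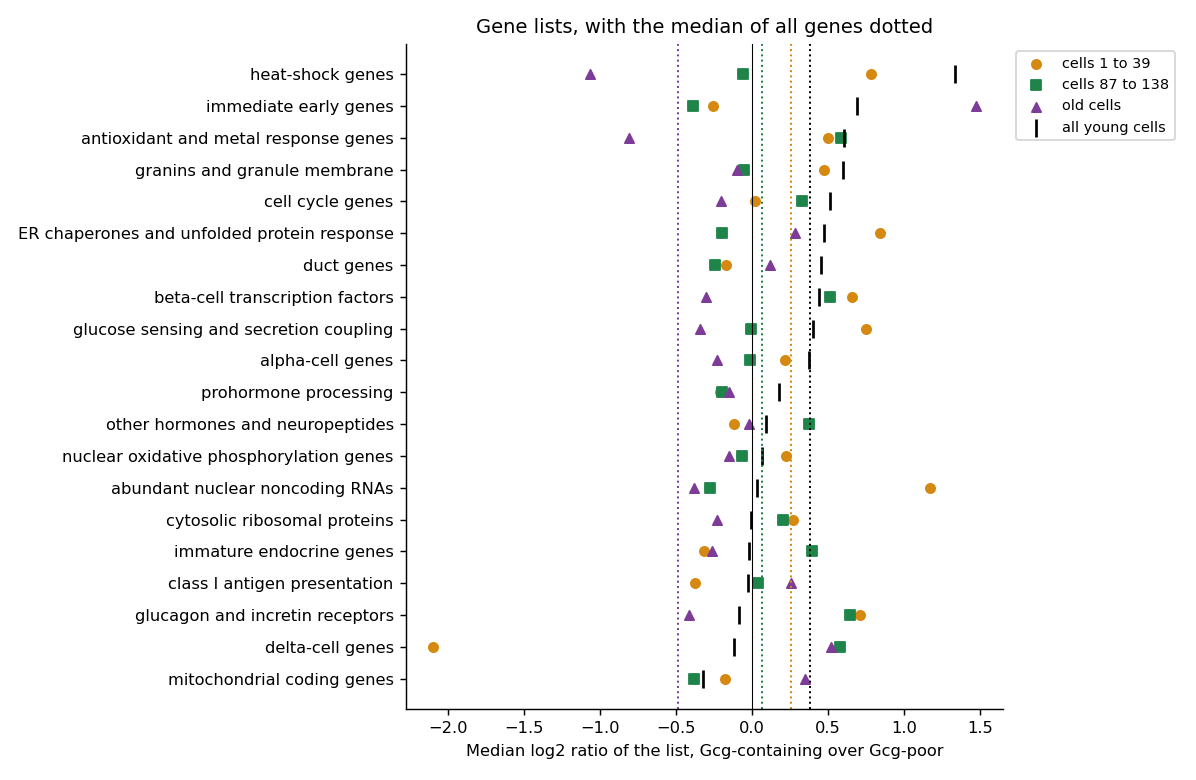
Median log2 ratio of mean TPM + 1, Gcg-containing over Gcg-poor, of 20 gene lists in cells 1 to 39, in cells 87 to 138, in old cells and in all young cells, with the median over all tested genes dotted for each. The heat-shock median is 1.33 in all young cells, 0.78 in cells 1 to 39, -0.06 in cells 87 to 138 and -1.06 in old cells; the macrophage list and lists with fewer than 4 measured genes are left out.

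Old cells offered the same comparison in cells that chose none of the ranked genes. At 26 months, 6 of 69 cells were Gcg-containing and 31 were Gcg-poor, 19 of these in cells 139 to 158. The median log2 ratio of all genes there was -0.49, the other way from the young cells. Of the 12 highest-ranked genes of the young cells, 2 had a positive ratio in old cells, and of the 12 lowest-ranked genes 10 had a negative one. By the 1.5-fold rule the counts were 2 and 9. Under the same rule, 5349 of all 11278 genes were lower in the old cells and 2094 higher, so low ratios were common there. Whether the lowest-ranked genes stood out from this was not tested. Mat2b had -2.10 and Glrx5 -2.39, near the young value or below it. Ttr had -0.19, Ddit3 -3.28, Mt2 -1.13, Txnip -1.20 and Sdha 0.61. Pyy had -1.54, Ppy 0.11 and Sst 1.05, the last resting on 1 cell of 1213 TPM. Across the old cells 159 to 190 (n = 32), Ppy and Pyy had rank correlations with Gcg of 0.62 and 0.63, ranks 2 and 1 among 6082 genes. Across cells 139 to 158 (n = 20) they had -0.66 and -0.65, ranks 6065 and 6064.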

How the data were processed

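Islet cells were captured on a Fluidigm C1 chip, and SMARTer cDNA and Nextera XT libraries were made, per the labels' protocols. The authors deposited TPM values for 207 cells in 1 table; 0 columns were left unused. CASAVA 1.8.2, FastQC and the build GRCm38 (mm10) are named in the submitters' processing notes; the aligner, counting program, strand handling and annotation were not given in the sources used here. TPM keeps no depth and sums to 1000000 per cell, so that a gain of one abundant transcript lowers others. Rows are NCBI Gene numbers, and 39725 of 44448 were matched to symbols of GRCm38.p6 in a RefSeq table.

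The log2 ratio is log2((mean TPM of Gcg-containing cells + 1)/(mean TPM of Gcg-poor cells + 1)), which understates differences of low genes. All genes except Gcg were compared if their mean over the 138 young cells was at least 1 TPM. Detection means 1 TPM or above. Lists are summarised by the median of their measured genes. Some members of the lists are not reported here by name. No test was run, because cells are not replicates and no animal is named. No doublet caller was run and no cell was left out. Ranked genes were the 12 with the highest and the 12 with the lowest ratios by the smaller ratio of the title ranges. They were taken from genes that averaged at least 10 TPM and were detected in 25% or more of all young cells. Their ratio over all young cells, the ratios in both ranges and the difference of mean log2(TPM + 1) had to share a sign. Gene models and genes without a symbol were left out of the ranking. List members, the genes of the hormone system and named examples were added. The Gcg thresholds, members, lists and rules were chosen with earlier results of these data known. The calculation of the ratio was tested on simulated data with known folds. That simulation drew each gene separately, without runs and with larger groups, so it does not show how reliable the ratios given here are. Python 3.11.15, numpy 2.4.6, pandas 2.3.3 and scipy 1.17.1 were used.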

Additional observations from a re-analysis of the deposited data

How the results depend on the processing

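The main limit is the design: 1 sample of young cells, TPM without depth, and groups spread unevenly over cells numbered in runs, so group and run cannot be fully told apart. No paired analysis was possible because the labels name no animal and the cells share no replicate numbers. Replicates could not be left out, so runs of cells were left out instead. The settings restricted to cells 1 to 39 or 87 to 138, and those without macrophage-carrying cells, were chosen after seeing the data. Across all settings, ratios of single genes were unaltered in direction, and within 1 SD between cells, in 928 of their values, moved further in 32 and changed sign in 52; list medians did so in 468, 15 and 21. The cause was not tested for any of the values below.

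The number of genes higher by 1.5-fold, 4755, was 2873 against all young cells below 100 TPM of Gcg, 2107 with a pseudocount of 10, 2545 with the difference of mean log2 values, 1708 among genes with a mean of 10 TPM or above (fewer genes compared) and 2094 in old cells. The number lower, 1859, was 746, 301, 536 and 5349 under the last 4 of these, 2929 with Gcg at 200 TPM or above, 999 without the highest cell of each group and 2845 in cells 87 to 138. Genes detected per cell had medians of 6165 in Gcg-containing and 5538 in Gcg-poor cells at any TPM above 0, and of 2929 in Gcg-containing cells at 5 TPM or above.

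The median log2 ratio of macrophage genes, 0.66, had no stable sign: it was -0.11 with Gcg at 50 TPM or above, -4.71 at 200 or above, -5.49 in cells 1 to 54, 5.10 in cells 55 to 138, -5.96 in cells 1 to 39, 5.16 in cells 87 to 138, -0.19 as the mean of the ranges, -0.39 without cells 55 to 86, -1.06 without cells 87 to 138, -1.58 in cells with 3000 to 5500 genes, -0.22 on mean log2 values, -0.019 without the highest cells, -0.72 without the cell highest in these genes, -0.19 without all 5 such cells and -0.051 in old cells. Immediate early genes were at -0.041, -0.26 and -0.39 in cells 1 to 54, 1 to 39 and 87 to 138. In cells 87 to 138, granins were at -0.053 and heat-shock genes at -0.059. In old cells these were at -0.10 and -1.06, antioxidant genes at -0.81, beta-cell transcription factors at -0.30 and cell cycle genes at -0.20. Cell cycle genes were at 1.11 with Gcg at 50 TPM or above and -0.077 against all below 100. Immature endocrine genes were at -0.63 with Gcg at 200 or above, -0.56 after rescaling without insulin, Gcg and mitochondrial genes, and 2.73 above a mean of 10 TPM. Receptors were at 1.82 against Gcg below 1 TPM and 0.71 in cells 1 to 39, glucose sensing genes at 1.53 in cells 1 to 54, delta-cell genes at -1.97 in cells 1 to 54 and -2.09 in cells 1 to 39, and nuclear noncoding RNAs at 1.53 without cells 87 to 138.

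Among single genes with a ratio past 1.5-fold, the sign turned as follows. Against Gcg below 1 TPM, Gcgr had 3.05, Isl1 1.09, Hspd1 -0.0011 and Coq10b 0.0087. In cells 1 to 54, Pyy had -1.61, Gipr -1.46, Hspa1b -0.92 and Malat1 -0.56, the last -0.064 as the mean of the ranges and 0.99 in all young cells. In cells 55 to 138, Pcsk1n had 0.89, Cpe -0.26 and Gcgr 0.21. Without cells 40 to 54, Pcsk1n had 0.50 and Gcgr 1.12, and without cells 55 to 86, Pyy had -0.44, Gipr -0.0015 and Hspa1b -0.57. In cells with 3000 to 5500 genes, Pcsk1n had 0.55, Gcgr 0.96, Isl1 0.21 and Hspd1 -0.0090. On mean log2 values, Gcgr had 0.41 and Isl1 0.51, and without the highest cells Gcgr had 0.95. In cells 1 to 39, Gcgr had 4.08, Isl1 2.10 and Coq10b 1.56. In cells 87 to 138, Pcsk1n had 0.66, Cpe -0.31, Gcgr 1.57, Abcc8 -0.040, Hsph1 -0.44 and Hspd1 -0.059. In old cells, Ttr had -0.19, Pyy -1.54, Cpe -0.22, Scg2 -0.13, Scgn -0.31, St18 -0.55, Hsph1 -1.21, Hspd1 -0.045, Hspa1b -1.06, Ddit3 -3.28, Mt2 -1.13, Txnip -1.20, ND4 1.16, Atp5g1 0.38, Aup1 -3.30, Umps -0.87, Polr3d -0.25, Nfe2l2 -1.34 and Taz 1.98.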

Other observations

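Some markers of other cell types were held by a few cells. Macrophage genes, a list of 8 that holds Cd68, Lyz2, Cd74 and the complement genes C1qa, C1qb and C1qc, summed to 31263 TPM in cell 72 and 18497 TPM in cell 112, both Gcg-containing, and to 7386 TPM in cell 49 and 6657 TPM in cell 32, both Gcg-poor. Insulin made up 15.7% of the TPM in cell 72 and 27.1% in cell 112. One Gcg-containing cell, cell 75, held 1193 TPM of Sparc and 184 TPM of Col1a2, genes of stellate cells and fibroblasts, or 98.8% and 99.6% of their young totals. No acinar or endothelial marker reached a mean of 1 TPM in young cells, and the summed acinar genes reached 32.8 TPM at most in a Gcg-containing and 1.5 TPM in a Gcg-poor cell.

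The 68 young cells between the groups, with a Gcg median of 50.4 TPM, had a Ttr median of 752 TPM, between 895 TPM in Gcg-containing and 505 TPM in Gcg-poor cells. Their Sst median was 28.3 TPM, also between 10.4 TPM in Gcg-containing and 42.6 TPM in Gcg-poor cells. Genes of an immature endocrine state gave little: Neurog3, Sox11, Dlk1 and Aldh1a3 were listed at 0 in every cell of both groups, and 1 of 5 measured genes was higher and 1 lower. Of the cell cycle genes, Mki67, Ccnb1 and Ccnb2 were likewise at 0, and 6 of 15 measured were higher and 2 lower. Beside these counts, 42.2% of all genes were higher and 16.5% lower. Immediate early genes, which respond within minutes to stimulation or cell handling, had 13 of 19 higher (42.2% of all genes) and 3 lower (16.5%). Their median log2 ratio was 0.69, but -0.26 in cells 1 to 39 and -0.39 in cells 87 to 138. Duct markers were found across the cells, with a summed level of 236 TPM at the median in Gcg-containing cells (5.36 to 1370) and 136 TPM in Gcg-poor cells (5.45 to 676). Their median log2 ratio was 0.45, with 0.81 in cells 1 to 54 and -0.04 in cells 55 to 138.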
